A study of Homo sapiens with 8 samples.

Results

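The comparison of SOX4 knockout Hep3B cells with parental Hep3B cells was taken from RNA-seq of 4 libraries out of 8 in the series, 2 libraries labelled WT (Hep3B 1 and 2) and 2 labelled SOX4-/- (SOX4 knockout 1 and 2). These 4 libraries were deposited together in 1 table, and the remaining 4, from siRNA-transfected cells, were not used here. Hep3B is a human hepatocellular carcinoma line, and cells of both genotypes were grown in MEM with fetal bovine serum, non-essential amino acids and pyruvate. The knockout cells came from lines made with CRISPR/Cas9 and were kept in medium with puromycin, an agent that the parental cells are not said to have received. Edited, selected cells are therefore compared with unselected parental cells, and the edit, the selection and the passage through a cell line cannot be told apart. The study's methods give this RNA-seq for knockout lines #1 and #2, and the labels number the knockout libraries 1 and 2 without tying a library to a line. If each library is 1 line, a difference between lines and one between libraries cannot be told apart. The labels do not say whether libraries of 1 group are separate cultures, so that p-values measure only the spread between these libraries.

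SOX4 belongs to the SOX family of transcription factors, which bend DNA through a high-mobility-group box and act with partner factors to turn genes on or off. It is active in embryonic progenitors and in many carcinomas, among them liver cancer, where it has been studied for its part in invasion and the epithelial-mesenchymal transition. The hepatocyte, the cell that a liver carcinoma resembles to varying degrees, is a secretory cell that makes most plasma proteins, handles glucose, amino acids and lipids, and conjugates foreign compounds.

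Transcript rows were summed by gene, which gave 16040 genes and library totals of 18123854 to 25353113 expected counts. Values per library are CPM, the counts divided by a TMM-scaled library size, and changes are log2 fold changes of SOX4 knockout over Hep3B with their standard error (SE). A gene was called changed at a p-value below 0.05 in edgeR's quasi-likelihood test, adjusted over all tested genes by the Benjamini-Hochberg method.

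SOX4 itself (chr6:21593741-21598619, hg38) had 798.7 and 265.9 CPM in Hep3B 1 and 2, and 297.9 and 301.6 CPM in SOX4 knockout 1 and 2. The knockout libraries lay inside the range of the Hep3B pair, and the change was -0.83 (SE 0.54, adjusted p = 0.372). The mRNA level therefore does not check the labels, since the edited part of the gene is not given in the sources used here, and every direction below is that of the libraries labelled SOX4 knockout. STAT6, the signal transducer of interleukin 4, had 31.95 and 13.19 CPM in Hep3B and 2.764 and 2.199 CPM in SOX4 knockout, groups that did not overlap (-3.18, SE 0.57, adjusted p = 0.0275). All 10 hepatocyte markers were detected in every library, with a summed level of 12910 to 15170 CPM in Hep3B and 29950 to 49970 CPM in SOX4 knockout, and 3 of them (APOA1, APOH and FGB) rose. Biliary markers summed to 288.8 to 572.2 CPM against 628.6 to 882.1 CPM and oncofetal liver markers to 347.7 to 611.8 CPM against 575.7 to 865.6 CPM, with 0 calls in either list. PECAM1, the endothelial marker analysed here, had at most 0.7697 CPM in any library. The blood list summed to 7.701 to 47.62 CPM in Hep3B and 116.7 to 348.2 CPM in SOX4 knockout, nearly all of it LYZ, a lysozyme also made by epithelial cells, while the leukocyte antigen PTPRC had at most 6 counts in any library.

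The Hep3B libraries differed from each other more than the SOX4 knockout libraries did. Over the 11356 genes whose mean count reached 100, the standard deviation of the log2 difference inside the pair was 0.919 for Hep3B and 0.633 for SOX4 knockout. Hep3B 2 stood alone, at least 4-fold away from all 3 other libraries, in 185 genes (20 above and 165 below), against 68 genes for Hep3B 1, 22 for SOX4 knockout 1 and 26 for SOX4 knockout 2. The genes high in Hep3B 2 alone, named after their values were seen, included heat-shock genes. HSPA6, an inducible HSP70 chaperone, had 1.078 and 390.5 CPM in Hep3B 1 and 2 and 0.6438 and 0.5498 CPM in SOX4 knockout 1 and 2. HSPA1B, nearly identical to HSPA1A, had 92.39 and 2178 CPM against 121.2 and 98.52 CPM, and HMOX1, the haem-degrading enzyme of the antioxidant response, 39.27 and 183.8 CPM against 12.5 and 16.38 CPM. All 3 had their highest level in Hep3B 2, HMOX1 was called lower in SOX4 knockout (-2.95, SE 0.69, adjusted p = 0.0498), and the part of this library state in the comparison was not tested. Among the genes high in Hep3B 1 alone were HK2 and PLIN2. HK2, a hexokinase, had 1242 and 199.9 CPM in Hep3B and 74.71 and 240.1 CPM in SOX4 knockout, and PLIN2, a coat protein of lipid droplets, had 2133 and 354.3 CPM against 156.7 and 296 CPM.

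Secreted proteins, membrane proteins and metabolic enzymes had more rises than the background of all genes, and transcription factors more falls. Of 14415 genes tested, 849 (5.89%) changed, 648 of them (4.50%) higher and 201 (1.39%) lower in SOX4 knockout. The median change of all tested genes was 0.01 on the log2 scale. The count rested on all 4 libraries. It was 1322 without Hep3B 2 and 2298 without Hep3B 1, and 73 without SOX4 knockout 1 and 21 without SOX4 knockout 2. In each of these the spread comes from the group that keeps 2 libraries, and the lone library is assumed to vary like it. Of the 38 called genes that were chosen by rule, all 38 stayed called without either Hep3B library, 12 without SOX4 knockout 1 and 9 without SOX4 knockout 2. Only 15 genes were called in the full comparison and without each library in turn. All of them were higher in SOX4 knockout, as was every gene called without SOX4 knockout 2, so their shared direction was fixed by that fit. Of these genes, 3 belong to complement, the plasma protein cascade that coats microbes and damaged cells. C2, the protease precursor of the classical pathway, had 4.256 and 4.22 CPM in Hep3B and 210.7 and 131.5 CPM in SOX4 knockout (5.33, SE 0.44, adjusted p = 0.0055). CFB, its counterpart in the alternative pathway, had 12.37 and 7.227 CPM against 263.9 and 190.5 CPM, and SERPING1, the inhibitor of the first complement proteases, 2.384 and 2.743 CPM against 98.72 and 95.61 CPM. The remaining 12 were the matrix proteoglycan LUM, the membrane proteins CD82, TM4SF1 and SLITRK6, the enzymes ALDH3B1, PTGDS and UGT2B15, and CBLN2, CCDC80, CTSF, MDGA1 and SPNS2.

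Genes were sorted by symbol into 4 classes that hold proteins with shared functions, namely secreted proteins, membrane proteins, transcription factors and metabolic enzymes. The secreted class had the highest share of rises, 73 of 319 tested genes (22.9%), beside 2 falls and a median change of 1.30. In the membrane class 114 of 972 genes rose (11.7%), 16 fell and the median was 0.54. In the metabolic class 77 of 722 rose (10.7%), 10 fell and the median was 0.42. Transcription factors went the other way, with 15 rises (1.5%) and 29 falls (2.89%) among 1002 genes and a median of -0.43, and 689 of the 1002 had a change below 0. The 73 secreted rises were 153 without Hep3B 1, 82 without Hep3B 2, 15 without SOX4 knockout 1 and 7 without SOX4 knockout 2, and in the same order the membrane rises were 227, 140, 16 and 3, the metabolic rises 127, 95, 7 and 4 and the falls of transcription factors 131, 59, 1 and 0. The counts by family given next, and most calls of single genes, carry the same dependence. The 11400 genes in no class had 369 rises and 144 falls, with a median of -0.04. Each SOX4 knockout library was set against each Hep3B library, and the median difference of the secreted class was 0.99 to 1.77, that of the membrane class 0.43 to 0.81, that of the metabolic class 0.47 to 0.50 and that of the transcription factors -0.58 to -0.28, beside 0.00 to 0.09 for all tested genes, so the sign of each class was the same in all 4 pairings. The secreted class also differed inside the Hep3B pair, where library 1 had a median 0.64 above library 2, so its difference was larger against Hep3B 2. Protein-coding genes held 630 rises and 185 falls among 13111 tested, and long noncoding RNAs 9 and 9 among 782.

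Among secreted proteins, complement and serpins had the largest shares of rises. Of 23 complement genes 11 rose and none fell (median 2.28), and the risers included C1R, C1S, C4B, C6, C8G, VTN and C4BPB beside C2 and CFB. C4B and its copies are nearly identical, and estimated counts may be split among them. Of 17 serpins, the protease inhibitors of plasma, 7 rose (median 2.34), among them SERPINA4, SERPINA6, SERPIND1, SERPINF1 and SERPINF2. Of 11 apolipoproteins, the protein part of lipoproteins, 4 rose (APOA1, APOC3, APOH and APOM) and all 11 had a change above 0. APOH, beta-2-glycoprotein 1, had 67.25 and 48.21 CPM in Hep3B and 841.6 and 275 CPM in SOX4 knockout (3.27, SE 0.60, adjusted p = 0.0285). Of 29 carrier and acute-phase proteins 8 rose, among them the haemoglobin scavenger HP, the haem carrier HPX, the thyroxine carrier TTR and HAMP, the peptide hormone hepcidin that limits iron export. TTR had 20.89 and 18.41 CPM against 247.4 and 99.07 CPM (3.14, SE 0.50, adjusted p = 0.0223), and HAMP 0.3973 and 0.422 CPM against 2.878 and 14.9 CPM (4.41, SE 0.92, adjusted p = 0.0399). The knockout levels were higher in SOX4 knockout 1 for APOH and TTR and in SOX4 knockout 2 for HAMP. ITIH1, a hyaluronan-binding plasma protein (chr3:52777586-52792069), had 0.6243 and 0.422 CPM in Hep3B and 36.88 and 14.51 CPM in SOX4 knockout, a rise of 5.61 (SE 0.68, adjusted p = 0.0134). Coagulation factors rose in 4 of 21 genes (F2, FGB, HABP2 and HRG).

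The extracellular matrix also rose, in 13 of 53 matrix and matricellular genes and 7 of 21 collagens. LUM, lumican, a proteoglycan that spaces collagen fibrils (chr12:91103455-91111766), had 0.6243 and 0.7385 CPM in Hep3B and 85.51 and 54.21 CPM in SOX4 knockout (6.67, SE 0.50, adjusted p = 0.00384). COL16A1, a fibril-associated collagen (chr1:31652247-31704168), had 0.8513 and 0.1582 CPM against 36.2 and 37.61 CPM (6.19, SE 0.72, adjusted p = 0.0113). Both were above the Hep3B range in each knockout library, as the rule that chose these genes required. COL14A1, another fibril-associated collagen (chr8:120125108-120372035), went the opposite way, from 173.7 and 28.48 CPM to 0.6816 and 0.4398 CPM (-7.46, SE 0.98, adjusted p = 0.0152), and its level was higher in Hep3B 1 than in Hep3B 2. The only other secreted gene that fell was ADAMTS1, a matrix metalloprotease, with 11.24 and 14.29 CPM in Hep3B and 2.121 and 3.464 CPM in SOX4 knockout (-2.20, SE 0.51, adjusted p = 0.0499). MMP7, matrilysin (chr11:102520508-102530754), had 0.7378 and 0 CPM in Hep3B and 5.188 and 114.6 CPM in SOX4 knockout (7.35, SE 1.71, adjusted p = 0.0494). Without SOX4 knockout 2 its change was 3.80 and it was no longer called, as held for most called genes chosen by rule. Among 82 growth factors and their antagonists 11 rose and none fell, and they included the Wnt ligands WNT4 and WNT10B together with the Wnt antagonists DKK1 and DKK3. DKK1 had 145.7 and 93.52 CPM in Hep3B and 557.6 and 953.5 CPM in SOX4 knockout (2.66, SE 0.48, adjusted p = 0.0276). Of 7 mesenchymal markers the 3 analysed here (VIM, COL1A1 and PDGFRB) summed to 297.3 to 651.4 CPM in Hep3B and 678.6 to 1069 CPM in SOX4 knockout, nearly all of it VIM. VIM was not called (0.87, adjusted p = 0.332), PDGFRB rose, and the part of cells of this kind in the matrix genes was not tested.

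Membrane proteins of cell contact rose in several families. Of 28 tetraspanins and their 4-pass relatives, organisers of receptor patches in the membrane, 9 rose and none fell (median 1.26). TM4SF1 (chr3:149369018-149377782) had 0.5108 and 0.3165 CPM in Hep3B and 103.7 and 221 CPM in SOX4 knockout (8.60, SE 0.64, adjusted p = 0.00384). CD9, CD82, CD151, EMP2, EMP3, TM4SF5, TSPAN4 and TSPAN8 rose with it. Of 58 adhesion proteins of the immunoglobulin, leucine-rich repeat and mucin type 15 rose and none fell (median 1.03), among them the hyaluronan receptor CD44, the integrin-associated CD47, ALCAM, ICAM2 and the mucins MUC1 and MUC13. MUC5AC, sorted there by its symbol, is a secreted gel-forming mucin. CD44 had 0.5675 and 0 CPM in Hep3B and 9.581 and 16.05 CPM in SOX4 knockout (5.49, SE 1.09, adjusted p = 0.0355). Integrins ITGA3, ITGB3 and ITGB6 rose, 3 of 20 tested. Cadherins divided, since 8 of 65 rose, CDH2, CDH6, CDH11, CDH16 and CDH19 among them, while the family median was -0.47 and none fell. CDH2, N-cadherin, had 33.03 and 31.49 CPM in Hep3B and 233.5 and 117.5 CPM in SOX4 knockout (2.44, SE 0.43, adjusted p = 0.0261). Tight and gap junction genes included 3 rises, CLDN2 and CLDN14 among them, and 2 falls, among them JAM2.

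Rises among receptors were spread over several families. Of 70 receptor kinases and semaphorin receptors 5 rose (7.14%) and none fell. That share lay below the 11.7% of the membrane class and nearer the 4.50% of all tested genes. Among the 5 was AXL, a receptor of GAS6, with 1.305 and 0.5275 CPM in Hep3B and 19.58 and 31.72 CPM in SOX4 knockout (4.80, SE 0.62, adjusted p = 0.0148). Of 94 cytokine, TNF and lipoprotein receptors 11 rose (11.7%, the share of the membrane class) and 3 fell (3.19%). The risers included TFR2, the transferrin receptor of hepatocytes that takes part in hepcidin control, with 1.873 and 1.213 CPM against 23.18 and 10.01 CPM (3.42, SE 0.61, adjusted p = 0.0275). TMPRSS6, a membrane protease that cleaves hemojuvelin, had 9.08 and 2.848 CPM against 80.43 and 55.25 CPM (3.51, SE 0.60, adjusted p = 0.0254). In both genes the knockout libraries lay above the Hep3B libraries. TNFRSF9, a costimulatory receptor of T cells, fell from 14.42 and 5.75 CPM to 0.1515 and 0.5498 CPM (-4.88, SE 0.85, adjusted p = 0.0261). Of 20 MHC and related genes 5 rose, namely HLA-DMA, HLA-DMB, HLA-DQB1, HLA-F and MR1, and ULBP1, a ligand of the natural killer receptor NKG2D, fell. HLA-DMB, part of the complex that loads peptides on class II molecules, had 0.5675 and 0.2637 CPM in Hep3B and 12.84 and 28.09 CPM in SOX4 knockout (5.61, SE 0.70, adjusted p = 0.0141), while ULBP1 had 30.36 and 42.52 CPM against 9.921 and 7.422 CPM (-2.07, SE 0.40, adjusted p = 0.0331). HLA genes vary between people and resemble each other, so their estimated counts are uncertain.

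Transporters and channels, the largest membrane families, held most of the membrane falls. Of 281 solute carriers 27 rose (9.61%) and 5 fell (1.78%). That share of falls was near the 1.65% of the membrane class and the 1.39% of all tested genes. SLC3A2, the heavy chain shared by several amino acid exchangers (chr11:62856012-62888884), had 1067 and 1548 CPM in Hep3B and 145.3 and 165.7 CPM in SOX4 knockout (-3.07, SE 0.46, adjusted p = 0.0192). SLC7A11, its light-chain partner in the cystine-glutamate exchanger (chr4:138164094-138242350), had 165.8 and 265.1 CPM against 24.24 and 37.39 CPM (-2.81, SE 0.42, adjusted p = 0.02). Both subunits of this exchanger were lower in each knockout library than in either Hep3B library, as the rule that chose these genes required. The amino acid carriers SLC7A2 and SLC6A9 fell as well. Rises included liver carriers such as SLC2A2, the glucose carrier of hepatocytes and beta cells, the organic anion carriers SLCO1B1 and SLCO2B1, and SLC22A7. Of 144 ion channels and pumps 15 rose (10.4%) and 4 fell (2.78%). ANO3, a member of the anoctamin family (chr11:26473902-26663290), had 16 and 5.169 CPM in Hep3B and 0.568 and 0.3849 CPM in SOX4 knockout (-4.44, SE 0.77, adjusted p = 0.0255). P2RY11, a receptor for extracellular ATP (chr19:10111521-10115389), had 49.55 and 39.03 CPM against 3.484 and 1.594 CPM (-4.11, SE 0.51, adjusted p = 0.0141). P2RY11 was the only fall among 105 G protein-coupled receptors, of which 9 rose (8.57%, beside 11.7% of the membrane class).

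Zinc finger genes made up 19 of the 29 transcription factors that fell and 535 of the 1002 tested. Their share of falls was 3.55%, beside 2.89% of all transcription factors. Of 535 C2H2 zinc finger genes named ZNF, ZSCAN, ZKSCAN, ZFP or ZBTB, many of which repress transposable elements, 19 fell and 3 rose, the median was -0.71 and 431 had a change below 0. The median was -0.52 in SOX4 knockout 1 and -0.86 in SOX4 knockout 2 against the Hep3B mean. It was -0.93 for the 235 genes on chromosome 19, where these genes lie in clusters, and -0.53 for the 300 on other chromosomes. Inside the Hep3B pair the 535 genes had a median of -0.37 for library 1 minus 2. ZNF486 (chr19:20167214-20200491) had 15.61 and 26.64 CPM in Hep3B and 0.2651 and 0.3299 CPM in SOX4 knockout (-6.14, SE 0.61, adjusted p = 0.00872). ZNF578 (chr19:52453576-52516879) had 8.74 and 27.17 CPM against 0.6816 and 0.1649 CPM (-5.32, SE 0.87, adjusted p = 0.023). ZSCAN12P1, a pseudogene sorted here by its symbol, had 20.15 and 114.1 CPM against 2.954 and 1.759 CPM (-4.82, SE 0.84, adjusted p = 0.0264). Zinc finger genes are similar in sequence, and their estimated counts may be shared among relatives.

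Other families of transcription factors had few calls and medians nearer 0. Of 36 nuclear receptors 2 rose, among them RARG, a retinoic acid receptor, and of 50 bZIP factors 2 fell, ATF3 and DDIT3, both stress-induced. ATF3 had 336.1 and 185.4 CPM in Hep3B and 35.26 and 35.46 CPM in SOX4 knockout (-2.88, SE 0.42, adjusted p = 0.0186), and DDIT3 159.6 and 112.1 CPM against 29.61 and 35.08 CPM (-2.07, SE 0.37, adjusted p = 0.0267). SOX and other HMG-box factors had a median of -0.05, and of 23 tested only TOX fell. MEF2B (chr19:19145567-19170290) had 66.34 and 24 CPM in Hep3B and 4.809 and 3.299 CPM in SOX4 knockout (-3.47, SE 0.58, adjusted p = 0.0241). MITF, the regulator of pigment cells and of lysosome genes (chr3:69739435-69968338), had 0.5675 and 0.7385 CPM against 11.93 and 12.65 CPM (4.22, SE 0.56, adjusted p = 0.0152). ETS1 had 1.816 and 0.7385 CPM against 12.08 and 22.71 CPM (3.76, SE 0.65, adjusted p = 0.0254), and ZBTB47 1.078 and 1.424 CPM against 9.959 and 11.16 CPM (3.07, SE 0.54, adjusted p = 0.0264). In each of these 3 genes both knockout libraries were above both Hep3B libraries, as the rule that chose these genes required. Of 81 homeobox factors 3 rose, GBX2 and POU2F2 among them, and 2 fell, ISL2 and LHX1. ISL2, a LIM factor of motor neurons, had 52.44 and 38.72 CPM in Hep3B and 6.854 and 9.786 CPM in SOX4 knockout (-2.46, SE 0.40, adjusted p = 0.0234). POU2F2, a POU-domain factor of B cells, had 3.405 and 3.27 CPM in Hep3B and 15.11 and 171 CPM in SOX4 knockout (4.80, SE 1.03, adjusted p = 0.0419). Without SOX4 knockout 2 its change was 2.14 and it was not called, as held for most called genes chosen by rule.

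Conjugating and glucose enzymes included rises and no called fall, while enzymes of amino acid metabolism included 9 rises and 5 falls. Of 41 conjugating enzymes 9 rose and none fell (median 1.01), among them the glucuronosyltransferases UGT2A3, UGT2B4, UGT2B11 and UGT2B15 and the bile acid conjugating enzyme BAAT. Members of the UGT2B and AKR1C groups are close relatives, so their split counts are uncertain, and AKR1C1, AKR1C2, AKR1C3 and AKR1C4, reductases of steroids, all rose. Of 70 glucose and glycogen enzymes 12 rose and none fell, FBP1 and G6PC of gluconeogenesis and PKLR of glycolysis among them. The median of this family was only 0.17, and 32 of its genes had a change below 0. PKLR, the liver pyruvate kinase, had 1.135 and 0.4747 CPM in Hep3B and 14.73 and 15.61 CPM in SOX4 knockout (4.23, SE 0.61, adjusted p = 0.0186), and FBP1 0.681 and 0.5802 CPM against 8.331 and 5.003 CPM (3.39, SE 0.64, adjusted p = 0.0316). Of 74 amino acid and urea cycle enzymes (median 0.54) 9 rose, including ARG1 and ASL of the urea cycle. The 5 that fell were ASNS, PHGDH, PSAT1, GPT2 and BCAT1. BCAT1, which starts the breakdown of branched-chain amino acids (chr12:24810024-24949460), had 109.5 and 179.9 CPM in Hep3B and 18.78 and 11.82 CPM in SOX4 knockout (-3.24, SE 0.44, adjusted p = 0.0161). ASNS, asparagine synthetase, fell from 371 and 256.6 CPM to 50.18 and 57.07 CPM (-2.55, SE 0.38, adjusted p = 0.0192), and PHGDH, which opens serine synthesis, from 381.6 and 337.6 CPM to 78.84 and 76.75 CPM (-2.21, SE 0.36, adjusted p = 0.0226). The 4 libraries separated cleanly by group in these genes, which the rule that chose BCAT1 required, and ASNS and PHGDH were named after their values were seen. Of 24 one-carbon and folate enzymes only mitochondrial MTHFD2 fell, from 728.1 and 505.7 CPM to 114.1 and 153.4 CPM (-2.21, SE 0.42, adjusted p = 0.0319), while AMT and MAT1A rose.

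Enzymes of lipid pathways also rose. PTGDS, prostaglandin D2 synthase (chr9:136977504-136981743), had 0.908 and 0.422 CPM in Hep3B and 118.3 and 100.6 CPM in SOX4 knockout (7.36, SE 0.54, adjusted p = 0.00384). In all, 16 of 132 fatty acid and glycerolipid enzymes rose, among them PTGS2 and PTGES of prostaglandin synthesis, and AGPAT4 fell. Of 74 sphingolipid and glycolipid enzymes 8 rose, and ST6GALNAC3, a sialyltransferase, fell from 24.8 and 13.5 CPM to 2.424 and 2.914 CPM (-2.84, SE 0.51, adjusted p = 0.0279). CYP2B6, a drug-metabolising cytochrome P450 (chr19:40991299-41018397), had 288.1 and 25.48 CPM in Hep3B and 1.25 and 3.574 CPM in SOX4 knockout (-6.04, SE 1.18, adjusted p = 0.0331). Without Hep3B 1 its change was -3.47, and it was not among the genes called without each library in turn. The fall of CYP2B6 stood against rises of CYP2S1, CYP3A5 and CYP4F11 among 26 P450 genes. Nucleotide enzymes had 1 rise (CDA) among 65 genes (1.54%) and the tricarboxylic acid cycle and respiratory chain 4 among 123 (3.25%), both below the 4.50% of all tested genes, and 2 of 23 sterol enzymes rose (8.7%). None of these 3 families had a fall.

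Genes near silence in 1 group and clearly expressed in the other were counted next, over the whole table. A gene was taken as newly expressed when both Hep3B libraries had at most 3 counts and both SOX4 knockout libraries at least 30, and as silenced in the reverse case. There were 55 newly expressed genes and 5 silenced genes, and all but 1 of the 60 (SLC15A3, adjusted p = 0.0679) were called in the test across all genes. The rule and the test use the same counts, so these calls are no separate support. In bulk RNA, expression in a few cells and low expression in every cell cannot be told apart. Of the 55, 10 had 0 counts in both Hep3B libraries, and 11 reached 100 counts in both knockout libraries. The 55 held 18 membrane proteins, 5 metabolic enzymes, 4 secreted proteins, 1 transcription factor (TFCP2) and 27 genes in no class, and 54 were protein-coding. For scale, all 16040 genes held 1135, 773, 374, 1086 and 12672 in the same order, and 14146 were protein-coding. The 10, taken against a floor of 3 counts in each library, were at least 10.2-fold (SLC35F3) to at least 45.5-fold (CDH19) higher in SOX4 knockout. They were MUC5AC, CDH16, CDH19, CNTN5, CD9, CD33, SLC35F3, CRYAB, SYNC and LDHD, most of them membrane proteins. CD9, a tetraspanin, had 47 and 44 counts in SOX4 knockout, and CRYAB, a small heat-shock protein of lens and muscle, 150 and 117. The other 45 had ratios of pooled CPM from 17.5 to 478. The count was 129 without Hep3B 1, 102 without Hep3B 2, 125 without SOX4 knockout 2 and 73 without SOX4 knockout 1.

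Among the newly expressed genes with the highest counts were membrane proteins and enzymes. CD82, a tetraspanin known as a suppressor of metastasis (chr11:44565591-44619766), had 1 and 1 counts in Hep3B and 670 and 496 in SOX4 knockout, a ratio of 478 (132 to 3950 as a 95% interval for counting error only, Clopper-Pearson, as for all ratios here). SLITRK6, a leucine-rich repeat protein of neurons and epithelia (chr13:85792787-85799349), had 2 and 3 counts against 978 and 209, a ratio of 195 (83.2 to 601). HFE2, hemojuvelin, the co-receptor through which bone morphogenetic proteins set hepcidin levels (chr1:146017468-146021823), had 1 and 0 counts against 383 and 169, a ratio of 453 (80.9 to 17900). SPTLC3, a subunit of serine palmitoyltransferase (chr20:13008979-13166765), had 1 and 0 counts against 385 and 82, a ratio of 383 (68.4 to 15200). GRAMD1B, a sterol carrier of the endoplasmic reticulum (chr11:123525636-123627772), had 0 and 2 counts against 780 and 142, a ratio of 378 (104 to 3130). With so few counts on the silent side the upper limits are wide. All 5 had more counts in SOX4 knockout 1, which was also the deepest library, and CD82 alone had nearly equal CPM in both (25.37 and 27.27).

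The 5 silenced genes had modest levels in Hep3B. CBR1, a carbonyl reductase of prostaglandins and quinones (chr21:36069924-36073178), had 149 and 473 counts in Hep3B and 1 and 0 in SOX4 knockout, a ratio of Hep3B over SOX4 knockout of 758 (136 to 30000). CACNA2D1, an auxiliary subunit of calcium channels (chr7:81946444-82443807), had 33 and 178 counts against 1 and 0, a ratio of 257 (45.7 to 10200). The noncoding LINC00365 (chr13:30103178-30108876) had 46 and 120 counts against 3 and 2, a ratio of 40.5 (17.0 to 126). ZNF682 (chr19:20004418-20039469) had 61 and 92 counts against 1 and 0, a ratio of 187 (33.0 to 7420). NKAIN1, which interacts with the sodium pump (chr1:31179745-31239888), had 65 and 34 counts against 0 and 2, a ratio of 60.4 (16.3 to 505). CBR1 was the only 1 of the 5 with at least 100 counts in both Hep3B libraries. The number of silenced genes was 28 without Hep3B 1, 19 without Hep3B 2, 23 without SOX4 knockout 1 and 6 without SOX4 knockout 2.

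The promoters of these genes were of more than 1 kind. The 250 bases before the RefSeq start of CBR1, CACNA2D1, CD82, SLITRK6 and HFE2 (HJV in RefSeq) are shown because these genes were switched and lie at either end of CG content among those with a promoter in the set, with each CG dinucleotide in capitals (RefSeq, GRCh38.p14, written 5′ to 3′ along the gene). The start in RefSeq can differ from the gene limits printed with the values, so the windows of CBR1, CD82 and HFE2 reach past those limits. CBR1 lies at chr21:36069774-36070023 on the plus strand, CACNA2D1 at chr7:82443957-82444206 on the minus strand, CD82 at chr11:44565413-44565662 on the plus strand, SLITRK6 at chr13:85799420-85799669 on the minus strand and HFE2 at chr1:146021736-146021985 on the minus strand.
CBR1: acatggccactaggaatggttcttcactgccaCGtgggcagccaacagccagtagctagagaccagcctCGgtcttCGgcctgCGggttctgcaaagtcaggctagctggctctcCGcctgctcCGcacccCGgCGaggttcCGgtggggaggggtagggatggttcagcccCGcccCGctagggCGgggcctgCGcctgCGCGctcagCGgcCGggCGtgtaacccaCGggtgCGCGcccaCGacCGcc
CACNA2D1: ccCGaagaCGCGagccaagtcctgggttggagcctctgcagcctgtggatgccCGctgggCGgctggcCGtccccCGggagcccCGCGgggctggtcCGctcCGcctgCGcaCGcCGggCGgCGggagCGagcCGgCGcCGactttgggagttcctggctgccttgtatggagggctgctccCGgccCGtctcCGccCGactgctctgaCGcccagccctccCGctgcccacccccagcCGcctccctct
CD82: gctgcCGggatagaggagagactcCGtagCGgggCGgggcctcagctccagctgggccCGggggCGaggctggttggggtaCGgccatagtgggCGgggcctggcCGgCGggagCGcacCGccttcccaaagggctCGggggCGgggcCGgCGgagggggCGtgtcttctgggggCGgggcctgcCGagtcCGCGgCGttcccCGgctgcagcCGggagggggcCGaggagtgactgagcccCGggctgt
SLITRK6: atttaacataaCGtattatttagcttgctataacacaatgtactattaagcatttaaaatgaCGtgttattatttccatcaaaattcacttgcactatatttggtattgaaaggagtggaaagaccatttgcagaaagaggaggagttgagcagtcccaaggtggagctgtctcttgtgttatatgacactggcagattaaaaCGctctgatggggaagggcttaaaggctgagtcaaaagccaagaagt
HFE2: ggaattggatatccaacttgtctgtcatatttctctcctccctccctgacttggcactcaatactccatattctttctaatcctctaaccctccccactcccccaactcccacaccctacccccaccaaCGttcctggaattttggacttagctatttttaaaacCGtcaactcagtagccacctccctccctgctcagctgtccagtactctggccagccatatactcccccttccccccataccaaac
CBR1 and CACNA2D1, both silenced, held 23 and 27 CG dinucleotides, and CD82, newly expressed, held 26. SLITRK6 and HFE2, newly expressed as well, held 3 and 2. The ratio of observed to expected CG, which is near 1 where CG has not been lost, was 0.76, 0.76, 0.75, 0.36 and 0.20 in the same order, against a median of 0.56 over all 35116 promoters in the RefSeq set. None of these 5 windows held AACAAAG, a sequence that SOX proteins bind, on either strand, and 4.5% of all promoters in the set did. No match says only that these letters are not in the window. Promoters were matched for 79.1% of tested genes and 75.6% and 68.2% of those called higher and lower, below the 80% needed, so a comparison of promoter content between sets of genes was void and is not given.

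Some changed genes lay next to each other. Of 1295 tested neighbours of genes called higher, the nearest tested gene on each side, 160 (12.4%) were also called higher, beside 4.50% of all tested genes, and of 402 neighbours of genes called lower 20 (4.98%) were also lower, beside 1.39%. Neighbours can belong to 1 family, overlap or share reads, and no test was made. CD82 lay between EXT2, an enzyme of heparan sulphate synthesis, and TP53I11, a p53-inducible gene, and both rose. EXT2 had 26.5 and 36.5 CPM in Hep3B and 96 and 119.9 CPM in SOX4 knockout (1.78, SE 0.36, adjusted p = 0.038), and TP53I11 had 0.454 and 0.5275 CPM against 11.32 and 14.51 CPM (4.70, SE 0.58, adjusted p = 0.0136). ZNF682 lay between ZNF93 and ZNF486, which both fell. The neighbours of CBR1, SETD4 (-0.66, SE 0.44, adjusted p = 0.38) and CBR3-AS1 (-0.43, SE 0.61, adjusted p = 0.696), were not called.

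The median change of some chromosomes also shifted, though not evenly along their length. The median log2 difference of SOX4 knockout minus Hep3B was -0.62 over 380 genes of chromosome 8, -0.53 over 105 genes of chromosome 21 and -0.52 over 186 genes of chromosome 13, and it was 0.42 over 645 genes of chromosome 11 and 0.32 over 639 genes of chromosome 3. On the remaining chromosomes it lay between -0.16 and 0.12, although stretches of some of them shifted more, as given below. SOX4 knockout 1 and 2 gave -0.63 and -0.63 on chromosome 8, -0.41 and -0.68 on chromosome 13, -0.53 and -0.42 on chromosome 21, 0.35 and 0.53 on chromosome 11 and 0.40 and 0.37 on chromosome 3. Hep3B 1 minus 2 was 0.11 on chromosome 8, -0.17 on chromosome 21, 0.34 on chromosome 13, -0.01 on chromosome 11 and 0.04 on chromosome 3. The shifts were therefore present in both knockout libraries, and each was larger in size than the difference inside the Hep3B pair on that chromosome. Gene copy number was not measured, and its part was not tested. Outside these 5 chromosomes 53 of 252 secreted genes (21.0%), 79 of 781 membrane genes (10.1%) and 61 of 616 metabolic genes (9.90%) were called higher, beside 4.02% of all genes tested there. On them the shares were larger, 29.9%, 18.3% and 15.1% in the same order, beside 6.82% of all genes. Transcription factors called lower made up 27 of 868 outside (3.11%, beside 1.29% of all genes) and 2 of 134 on these chromosomes (1.49%, beside 1.92%).

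In windows of 10 Mb with at least 20 genes, 26 of 216 had a median past 0.5 in either direction between the groups, beside 4 between the knockout libraries and 3 between the Hep3B libraries. The lowest was 20 to 30 Mb on chromosome 19, with a median of -1.16 over 22 genes with a mean count of at least 100, of which 13 were zinc finger genes. It was -0.50 in SOX4 knockout 1 and -1.73 in SOX4 knockout 2, the widest difference between the knockout libraries of any window. ZNF486 and ZNF682 lie in this window. The highest was 50 to 60 Mb on chromosome 3, with a median of 0.79 over 70 genes, 0.71 in SOX4 knockout 1 and 0.85 in SOX4 knockout 2, and ITIH1 and ITIH3 lie there. Shifts were uneven along a chromosome. The median was -0.25 at 0 to 10 Mb of chromosome 3, and on chromosome 11 it was 0.78 at 0 to 10 Mb and -0.28 at 100 to 110 Mb. Chromosomes with a median near 0 also held shifted windows, such as 200 to 210 Mb on chromosome 1 (0.67) and 0 to 10 Mb on chromosome 9 (-0.99). Genes outside the shifted chromosomes are therefore not free of such shifts.

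The knockout libraries were then set against each other, 1 library against 1, so that no test could be made. Of the same 11356 genes, 27 differed by at least 3 on the log2 scale, 4 higher in SOX4 knockout 1 and 23 higher in SOX4 knockout 2. The same count was 133 between the Hep3B libraries, 120 of them higher in Hep3B 1. For scale, 300 genes lay at least 4-fold apart with both knockout libraries on one side and both Hep3B libraries on the other, 255 of them higher in SOX4 knockout, and no gene had 1 knockout library 4-fold above and the other 4-fold below both Hep3B libraries.

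The genes highest in SOX4 knockout 1 included liver genes of glucose and lipid handling. G6PC, the last enzyme of gluconeogenesis (chr17:42900797-42914434), had 15.9 CPM in SOX4 knockout 1 and 1.1 CPM in SOX4 knockout 2, and 0.1703 and 0.05275 CPM in Hep3B. The ratio of pooled CPM between the groups was 90.2 (35.0 to 333) and the gene was called (adjusted p = 0.0485). G6PC was not called without SOX4 knockout 1, as held for most called genes chosen by rule. CREB3L3, a liver transcription factor of fasting, had 52.64 and 8.192 CPM in SOX4 knockout and 10.84 and 11.13 CPM in Hep3B, so only SOX4 knockout 1 lay above the Hep3B pair. SULT2A1, which sulphates steroids and bile acids, had 39.12 and 4.618 CPM in SOX4 knockout and 11.41 and 3.745 CPM in Hep3B. BDH1 of ketone body metabolism, CROT of peroxisomal and ACADSB of mitochondrial fatty acid oxidation were at least 4-fold higher in SOX4 knockout 1 as well. They belong to 4 of 111 fatty acid and glycerolipid enzymes with such a difference, beside 0 that were 4-fold higher in SOX4 knockout 2. Over all 11356 genes, 37 (0.326%) were 4-fold higher in SOX4 knockout 1 and 67 (0.59%) in SOX4 knockout 2. FGF17, a growth factor, had 8.142 and 0.6598 CPM in SOX4 knockout and 11.58 and 1.055 CPM in Hep3B, and thus split both pairs alike.

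Chemokines were among the genes highest in SOX4 knockout 2. CXCL5, a chemokine that attracts neutrophils (chr4:73995642-73998730), had 45.44 and 1744 CPM in SOX4 knockout 1 and 2 and 257.8 and 20.62 CPM in Hep3B 1 and 2. CXCL3, of the same cluster (chr4:74036591-74038774), had 2.689 and 86.1 CPM in SOX4 knockout and 17.88 and 0.844 CPM in Hep3B. LCN2, the iron-siderophore binding protein lipocalin 2 (chr9:128149430-128153456), had 0.4544 and 17.92 CPM in SOX4 knockout and 15.95 and 0.05275 CPM in Hep3B. In each of these the SOX4 knockout and Hep3B pairs overlapped, and none was called in the comparison of the groups. C2CD4A, which is induced in inflammation, had 3.029 and 90 CPM in SOX4 knockout and 29.4 and 4.695 CPM in Hep3B, and MIR3142HG, the host of a microRNA, 1.25 and 29.63 CPM and 7.094 and 0.2637 CPM. Of 22 chemokine, cytokine and angiopoietin-like genes 10 were at least 4-fold higher in SOX4 knockout 2 and 1 in SOX4 knockout 1, against the 0.59% and 0.326% of all genes. The chemokine CXCL6, with 14.96 and 179.7 CPM in SOX4 knockout and 4.938 and 3.165 CPM in Hep3B, was above Hep3B in both knockout libraries and rose (4.58, adjusted p = 0.0483). The hydrogen peroxide generating oxidase DUOX2 and its maturation factor DUOXA2 had 159.1 and 51.68 CPM in SOX4 knockout 2 and 11.55 and 2.272 CPM in SOX4 knockout 1.

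The chemokine family also differed inside the Hep3B pair. Of the 22 genes 14 were at least 4-fold higher in Hep3B 1 than in Hep3B 2, with a median log2 difference of 2.25, and none was 4-fold lower, beside 378 (3.33%) higher and 76 (0.669%) lower of all 11356 genes. CXCL6 was not among the 14. Over all classes, 20 genes were at least 4-fold higher in both Hep3B 1 and SOX4 knockout 2 than in both Hep3B 2 and SOX4 knockout 1, and 0 showed the reverse. Paired by equal library number, only 1 gene was 4-fold higher in Hep3B 1 and SOX4 knockout 1 than in the other pair. The 20 included the chemokines CXCL2, CXCL3, CXCL5, CXCL8 and CCL20, the adhesion receptor ICAM1, LCN2, PTX3, VNN3, IER3 and SPRY4. CXCL8, interleukin 8, had 436.2 and 4.484 CPM in Hep3B and 62.63 and 500.2 CPM in SOX4 knockout. CCL20 had 676.9 and 7.912 CPM in Hep3B and 142.5 and 1580 CPM in SOX4 knockout, and ICAM1 698.7 and 110.9 CPM against 121.3 and 1520 CPM. None of the 20 genes was called in the comparison of the groups, which the choice of genes that overlap between groups largely fixes.

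**Figure D1:**
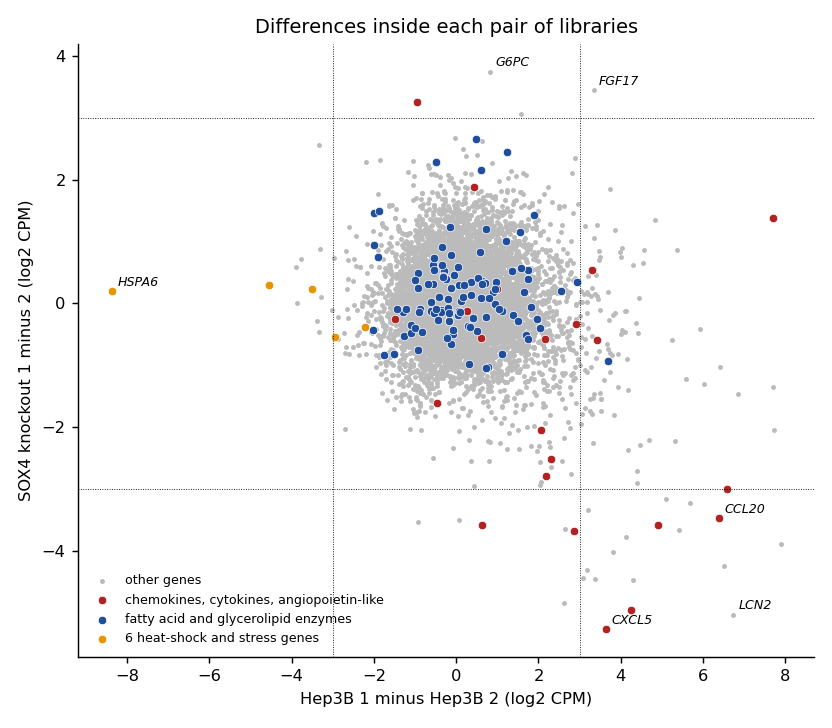
Log2 CPM difference of SOX4 knockout 1 minus 2 against that of Hep3B 1 minus 2 for 11356 genes, with dotted lines at 3 in either direction. Many chemokine and cytokine genes (red) fall at lower right, higher in SOX4 knockout 2 and in Hep3B 1, fatty acid enzymes (blue) include several near the top, and the heat-shock and stress genes (orange) lie at far left, high in Hep3B 2 alone.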

How the data were processed

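RNA was extracted with TRIzol and sequenced as polyadenylated, stranded libraries. The authors deposited expected counts, estimated reads per RefSeq transcript that are not normalized. The submitters' processing notes name STAR, Partek and hg38, and versions and the strand setting are not given in the sources used here, so reads of a gene and its antisense partner cannot be told apart. Of the values 19.9% were whole, and the smallest transcript sum over the 4 libraries was 10. Counts of 33253 transcripts were summed over 16040 genes and rounded. 19 gene names turned into dates were separated by chromosome, and 0 columns were without a library.

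Tests used edgeR 4.0.16 under R 4.3.3, with low genes removed by filterByExpr, TMM scaling and the quasi-likelihood F test with Benjamini-Hochberg adjusted p-values, on 2 libraries a group and a common dispersion of 0.145. Steps were tested on simulated data with 200 changed genes, of which 94 were called. Of these, 91 had an absolute log2 change of 3 and only 3 a change of 1. There were 14 false calls beside them, so most smaller changes were missed and some calls were wrong. Single-library differences are log2 CPM with a prior count of 2. Gene classes are symbol patterns in 4 classes and 43 families. Named genes were SOX4, STAT6 and MTHFD2, the 4 largest rises and falls in each class among called genes whose mean count reached 100 and whose groups do not overlap, the 6 strongest newly expressed and silenced genes, and the 5 genes highest in each knockout library against the other. Other names were chosen after their values were seen. Members and lists were chosen with earlier results of these data known. Alternatives were median-of-ratios factors, DESeq2 1.42.0, other filters, a replicate block, other limits and leaving out each library. Ratios and lower bounds cover counting error only. Some genes that meet these rules are not reported here.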

Additional observations from a re-analysis of the deposited data

How the results depend on the processing

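The count of 849 changed genes was 2160 with the DESeq2 Wald test and 518 with at least 10 counts in every library, and it ranged from 21 to 2298 when 1 library was left out. It was 944 with median-of-ratios factors, 743 with no filter and 849 with a minimum absolute log2 fold change of 1. The share of higher calls was 76.3%, and 63.9% with DESeq2, 63.6% without Hep3B 1, 63.8% without Hep3B 2, 93.2% without SOX4 knockout 1 and 100% without SOX4 knockout 2. Deviations of same-numbered libraries had a correlation of -0.085. With 2 libraries a group, this value cannot decide whether equal library numbers mark pairs. The count was 982 with a replicate block. The 55 newly expressed genes became 10 with a limit of 0 counts in the silent libraries, 173 with a limit of 10, 11 with at least 100 counts in the expressing libraries, and 73 to 129 without 1 library. The 5 silenced genes became 0, 22, 1 and 6 to 28 in the same order. The 27 genes apart between the knockout libraries became 104 at a log2 difference of 2. Of 38 named genes that were called, 0 changed direction when 1 library was left out. Their groups do not overlap, so this outcome was fixed by the choice of genes. Median-of-ratios factors moved the median of all genes from 0.01 to -0.03. Apart from the construction of each alternative, the cause was not tested. With 2 libraries a group, no library could be tested as an outlier.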

Other observations

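Other groups of genes were noted after their values were seen, and they are given as counts with no test. Of 12 S100 calcium-binding proteins tested, 7 were called higher (S100A1, S100A2, S100A3, S100A4, S100A6, S100A13 and S100A16, which lie together on chromosome 1) and 1 lower (S100P), and the median change was 2.48. S100A4 rose by 4.88 on the log2 scale and S100A6 by 3.58. Of 9 troponins, transgelins and muscle actins 6 were called higher (TNNC1, TNNI1, TNNT1, TAGLN, ACTA1 and ACTG2), with a median of 3.44 and differences inside both pairs near 0 (0.07 between Hep3B 1 and 2 and 0.04 between SOX4 knockout 1 and 2). Of 10 MAGE, CSAG and PRAME antigens, which are normally expressed in germ cells and reappear in tumours, 5 were called higher and all 10 had a change above 0. Of 18 OAS, GBP and IFI genes, many of them induced by interferons, 5 were called higher (GBP1, GBP2, IFI27L2, OAS3 and OASL) and 17 had a change above 0.

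Of 63 heat-shock genes named HSP or DNAJ, 3 were called, all lower (DNAJC2, DNAJC3 and HSPA13), and the median change was -0.69. Hep3B 1 minus 2 had a median of -0.45 over the same genes. Against Hep3B 1 the median difference was -0.07 for SOX4 knockout 1 and -0.17 for SOX4 knockout 2, and against Hep3B 2 it was -0.98 and -0.80.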
